A study of Mus musculus with 20 samples.

Results

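The 34 genes described here encode the entry of pyruvate into mitochondria, the pyruvate dehydrogenase complex with its kinases and phosphatases, the citric acid cycle, the cytosolic enzymes that work on citrate, isocitrate and malate, the malic enzymes and the carriers that link both compartments. They were taken by name from the 25700 mouse genes counted in each library. The rule uses no measured value, but the list was chosen with earlier results of these data known. All 34 were found and all 34 passed the filter on low counts, among 15430 genes tested. The mitochondrial pyruvate carrier admits pyruvate to the matrix, where the dehydrogenase complex turns it into acetyl-CoA. The kinases switch the complex off by phosphorylating it and the phosphatases switch it on again. The cycle oxidises the acetyl group and passes electrons to the respiratory chain. Proximal tubule cells of the kidney are rich in mitochondria and draw on this pathway for transport, for ammonia production and for glucose synthesis.

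The libraries came from mice of a crystal nephropathy study in which alkali was given as bicarbonate. The 4 groups, of 5 libraries each, were oxalate on alkali (titles Oxalate_late 2, 5, 8, 30 and 33), untreated oxalate (Oxalate 3, 12, 32, 39 and 40), control on alkali (Control_late 1, 4, 7, 27 and 37) and untreated control (Control 9, 13, 19, 26 and 35). Values by library are given below in that order of titles. The labels name no tissue, strain, sex, age, dose or duration and do not explain the word "late". They also do not say whether a library is 1 animal. The p-values therefore set group differences against the spread between these libraries, which may not be the spread between animals. The oxalate model is known here only by its label.

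Each library held 25547840 to 39550689 counts of polyadenylated RNA, and the 34 genes took 0.693% to 1.02% of them. Markers of kidney epithelium were strong in every library: 14 proximal tubule markers summed to 10457 to 22546 CPM (counts scaled to library size) in oxalate on alkali, 6880 to 17648 in untreated oxalate, 23709 to 25342 in control on alkali and 22580 to 26535 in untreated control. The 9 macrophage markers summed to 280 to 904, 715 to 2848, 122 to 186 and 124 to 170 CPM in the same order of groups. Adipoq, made by fat cells, exceeded 1 CPM in 6 libraries (Oxalate_late 33, Oxalate 32, Control_late 1 and 4, Control 9 and 26), so results are also given without them where that matters. CPM values were scaled by the trimmed mean of M-values (TMM), which centres the bulk of genes. Scaling to total counts in its place moved the median of all genes, for untreated oxalate against control, to 0.30 on the log2 scale.

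The first comparison asked how oxalate changed these genes without alkali. In untreated oxalate libraries 28 of the 34 genes fell, 2 rose and 4 did not pass the test, at a Benjamini-Hochberg adjusted p under 0.05 in edgeR's quasi-likelihood test over all genes. Across all tested genes 49.4% passed, 23.1% lower and 26.4% higher. The 2 that rose were Pdp1, a phosphatase that switches pyruvate dehydrogenase on, and Me2, the NAD+-linked malic enzyme of mitochondria. The 4 that did not pass were Idh1, Acly, Pdk1 and Me3. The median log2 fold change of the 34 was -0.52, against -0.00043 for all genes. For 24 genes every untreated oxalate library lay below every untreated control library, a pattern found in 15.4% of tested genes, and for Pdp1 every one lay above, as in 18.5%. Under total-count scaling 19 of the 34 fell and 2 rose, the median of the 34 was -0.24, and the share of all called genes that were higher was 85.1%, against 53.3% with TMM. In bulk tissue, fewer cells of a type and less RNA of these genes per cell cannot be told apart.

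**Figure D1:**
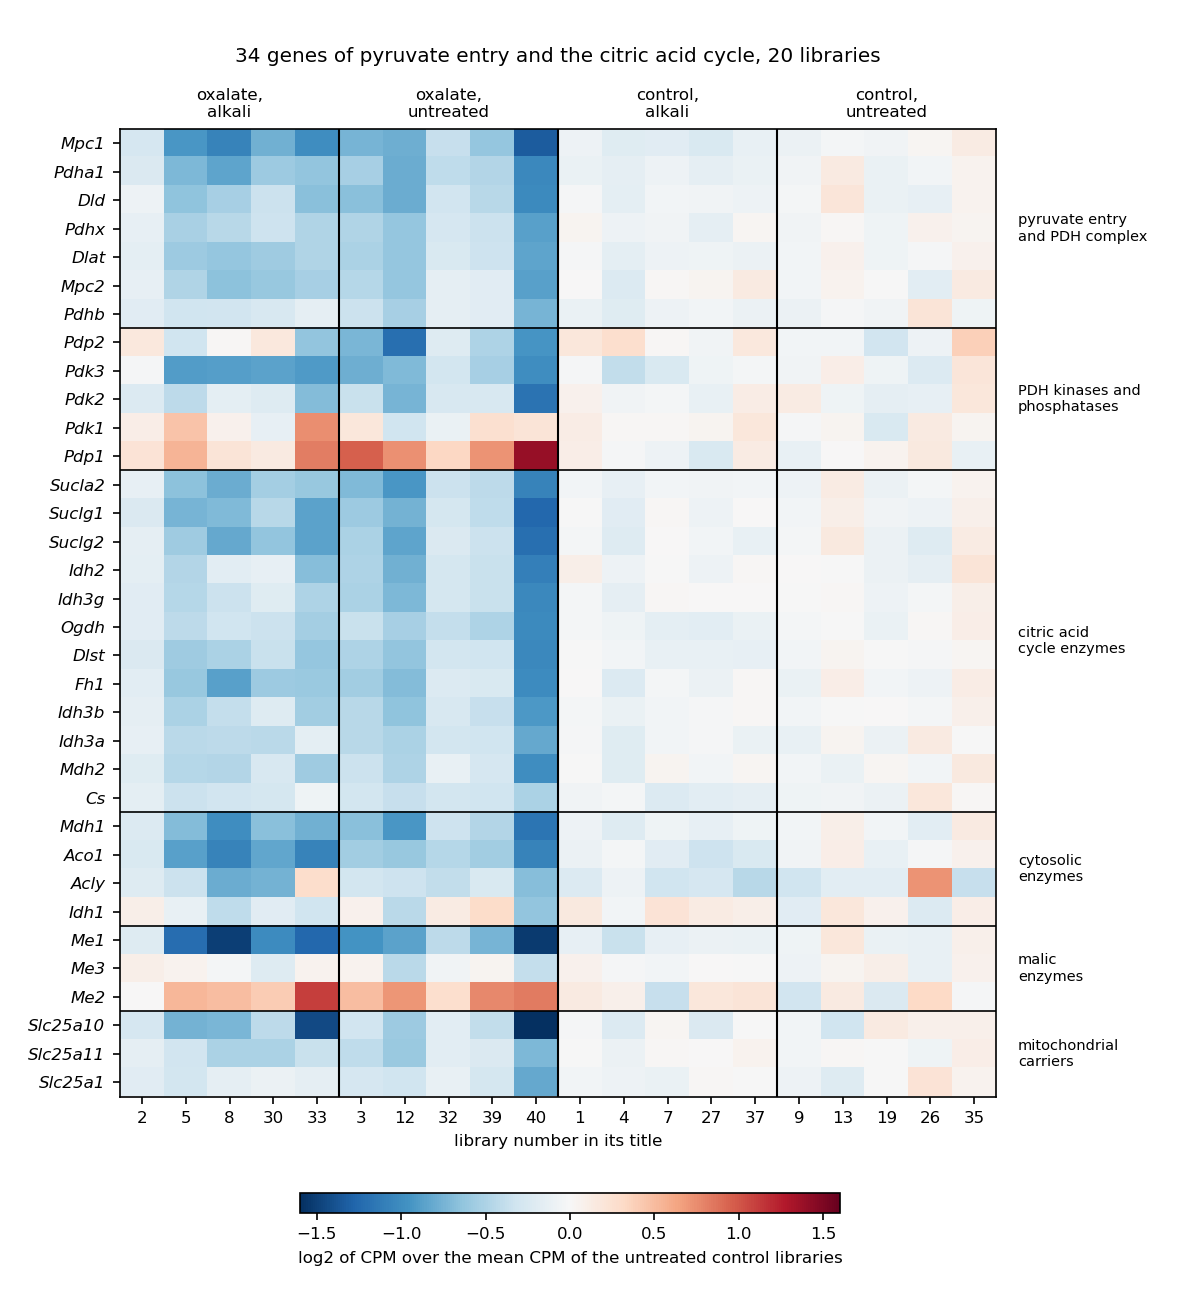
Each row is 1 of the 34 genes, grouped by role, and each column 1 of the 20 libraries, grouped by oxalate and alkali. Colour is the log2 of CPM over the mean of the untreated control libraries; most rows are blue in the 10 oxalate libraries, darkest in Oxalate 40, while Pdp1 and Me2 are red.

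RefSeq promoter windows (GRCm38.p6, 250 bases before to 50 after the start) were given for 31 of the 34 genes. For 30 of their 41 windows, a stretch after the start was found in an annotated transcript of the gene. The upstream 250 bases are shown for 4 genes on which the results below turn: Mpc1, Pdhx and Sucla2, which were among the clearest decreases with oxalate, and Pdp2, which had the smallest p for alkali in oxalate. Each is read 5′ to 3′ along the gene. The Mpc1 and Sucla2 windows lie inside the gene spans given below, downstream of the annotated gene start. Capitals mark matches to a GC box (GGGCGG, either strand), an ETS core (CCGGAAG) or an NRF1 core (GCGCNNGCGC).
Mpc1 (chr17:8283537-8283786, plus strand): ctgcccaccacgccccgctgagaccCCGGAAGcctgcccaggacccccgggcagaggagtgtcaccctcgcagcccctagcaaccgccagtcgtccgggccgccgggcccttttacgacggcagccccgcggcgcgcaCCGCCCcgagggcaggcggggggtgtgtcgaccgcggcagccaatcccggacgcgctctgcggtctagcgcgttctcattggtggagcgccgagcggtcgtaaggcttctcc
Pdhx (chr2:103073514-103073763, minus strand): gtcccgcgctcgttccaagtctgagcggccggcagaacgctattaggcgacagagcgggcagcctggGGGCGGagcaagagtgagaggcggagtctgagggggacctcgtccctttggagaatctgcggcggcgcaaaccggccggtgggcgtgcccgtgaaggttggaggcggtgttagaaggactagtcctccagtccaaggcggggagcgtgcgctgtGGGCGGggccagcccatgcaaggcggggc
Sucla2 (chr14:73552536-73552785, plus strand): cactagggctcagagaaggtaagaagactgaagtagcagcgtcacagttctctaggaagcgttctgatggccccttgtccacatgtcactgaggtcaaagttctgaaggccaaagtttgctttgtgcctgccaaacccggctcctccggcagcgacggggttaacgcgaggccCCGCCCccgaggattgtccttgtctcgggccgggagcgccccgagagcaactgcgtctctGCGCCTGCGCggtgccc
Pdp2 (chr8:104591222-104591471, plus strand): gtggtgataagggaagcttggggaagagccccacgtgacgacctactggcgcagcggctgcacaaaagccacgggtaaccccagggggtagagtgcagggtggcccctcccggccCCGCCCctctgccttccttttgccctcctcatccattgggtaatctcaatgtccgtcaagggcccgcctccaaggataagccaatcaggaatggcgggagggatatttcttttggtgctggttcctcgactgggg
The Mpc1 window shown, the first given for this gene, holds an ETS core at -225 and a GC box at -112 from the start. The other Mpc1 window, not shown, holds a GC box at -121 and no ETS core in its upstream bases. The Pdhx window holds GC boxes at -183 and -29, the Sucla2 window a GC box at -77 and an NRF1 core at -17, and the Pdp2 window a GC box at -135. Over whole 300-base windows, a GC box was present for 24 of 31 genes (77.4%), against 38.2% of all 27025 genes with a window. These 27025 were not limited to genes that passed the count filter, as all 34 genes did, so the shares compare unlike sets. An ETS core was present for 4 of 31 (12.9%, against 9.93%), an NRF1 core for 3 (9.68%, against 7.0%), a nuclear receptor half-site (AAGGTCA) for 1 (3.23%, against 5.38%) and a cAMP response element (TGACGTCA) for 2 (6.45%, against 2.03%). These are matches of letters only.

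Pyruvate entry and the dehydrogenase complex fell, with 7 of 7 genes lower and log2 fold changes of -0.74 to -0.37. Mpc1 (chr17:8282904-8297661, plus strand; GRCm38), a subunit of the pyruvate carrier, had 80.0, 77.7, 103, 87.1 and 53.5 CPM in untreated oxalate libraries, against 126, 132, 129, 136 and 147 CPM in untreated control libraries. The highest oxalate library lay below the lowest control library. Its log2 fold change was -0.74 ± 0.15 (SE), with an adjusted p of 0.000419 by edgeR. Its partner Mpc2 averaged 169.7 ± 34.7 CPM in untreated oxalate and 228 ± 18.1 CPM in untreated control (SD, n = 5 each), and its libraries overlapped. Mpc2 also fell, by a log2 fold change of -0.43 ± 0.13, though the call was lost under total-count scaling.

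Pdha1, the alpha subunit of the decarboxylase and the site the kinases phosphorylate, had 437, 367, 478, 459 and 309 CPM in untreated oxalate, against 609.6, 699, 588, 615 and 658 CPM in untreated control. The groups did not overlap, and the log2 fold change was -0.63 ± 0.12 (edgeR, adjusted p = 0.000334). Its beta subunit Pdhb was at 130.0 ± 21.8 CPM in untreated oxalate and 168 ± 14.3 CPM in untreated control, with a log2 fold change of -0.37 ± 0.096; this call was lost under total-count scaling (-0.086). Dlat, the acetyltransferase that forms the core of the complex, had 115, 107, 138, 130.4 and 91.0 CPM in untreated oxalate, against 158, 171, 156, 161 and 172 CPM in untreated control. Every oxalate library was lower, and the log2 fold change was -0.49 ± 0.10 (edgeR, adjusted p = 0.00063).

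Pdhx (chr2:103021075-103073513, minus strand), the subunit that ties the dihydrolipoamide dehydrogenase to the Dlat core, had the smallest p of the 34. It had 33.7, 30.5, 39.05, 37.1 and 25.8 CPM in untreated oxalate libraries, against 45.3, 47.5, 44.7, 49.1 and 48.6 CPM in untreated control libraries. The groups were apart and the controls close together, and the log2 fold change was -0.50 ± 0.094 (edgeR, adjusted p = 0.000274). Dld, the dihydrolipoamide dehydrogenase shared with the alpha-ketoglutarate dehydrogenase complex, had 237, 216, 303, 276 and 186 CPM in untreated oxalate, against 366, 428, 349, 343 and 391 CPM in untreated control. It fell by a log2 fold change of -0.63 ± 0.13 without overlap (edgeR, adjusted p = 0.000537). Per exon length, Pdha1 was the most abundant gene of this set at 109.8 ± 18.8 RPKM (CPM over the exon length in kilobases) in untreated oxalate and 169.8 ± 11.9 RPKM in untreated control, and Pdhx the least at 8.46 ± 1.34 and 11.97 ± 0.508 RPKM in the same groups.

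The regulators of the complex did not move as 1 block: 3 fell, 1 rose and 1 did not pass. Pdp1 (chr4:11958184-11966452, minus strand), the calcium-stimulated catalytic subunit of the phosphatase, had 10.9, 9.32, 7.05, 9.23 and 14.7 CPM in untreated oxalate, against 5.16, 5.63, 5.84, 6.23 and 5.15 CPM in untreated control. All 5 oxalate libraries exceeded all 5 controls, with Oxalate 40 highest. The log2 fold change was 0.87 ± 0.17 (edgeR, adjusted p = 0.000326), and it stayed a call under all 28 alternatives tried, between 0.66 and 1.20. The other catalytic subunit, Pdp2 (chr8:104591451-104599026, plus strand), moved the opposite way. It had 53.5, 38.4, 77.0, 62.8 and 46.2 CPM in untreated oxalate, against 86.1, 86.2, 71.8, 83.9 and 116 CPM in untreated control. Oxalate 32 overlapped the lowest control, and the fold change was -0.68 ± 0.17 on the log2 scale (edgeR, adjusted p = 0.00308).

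**Figure D2:**
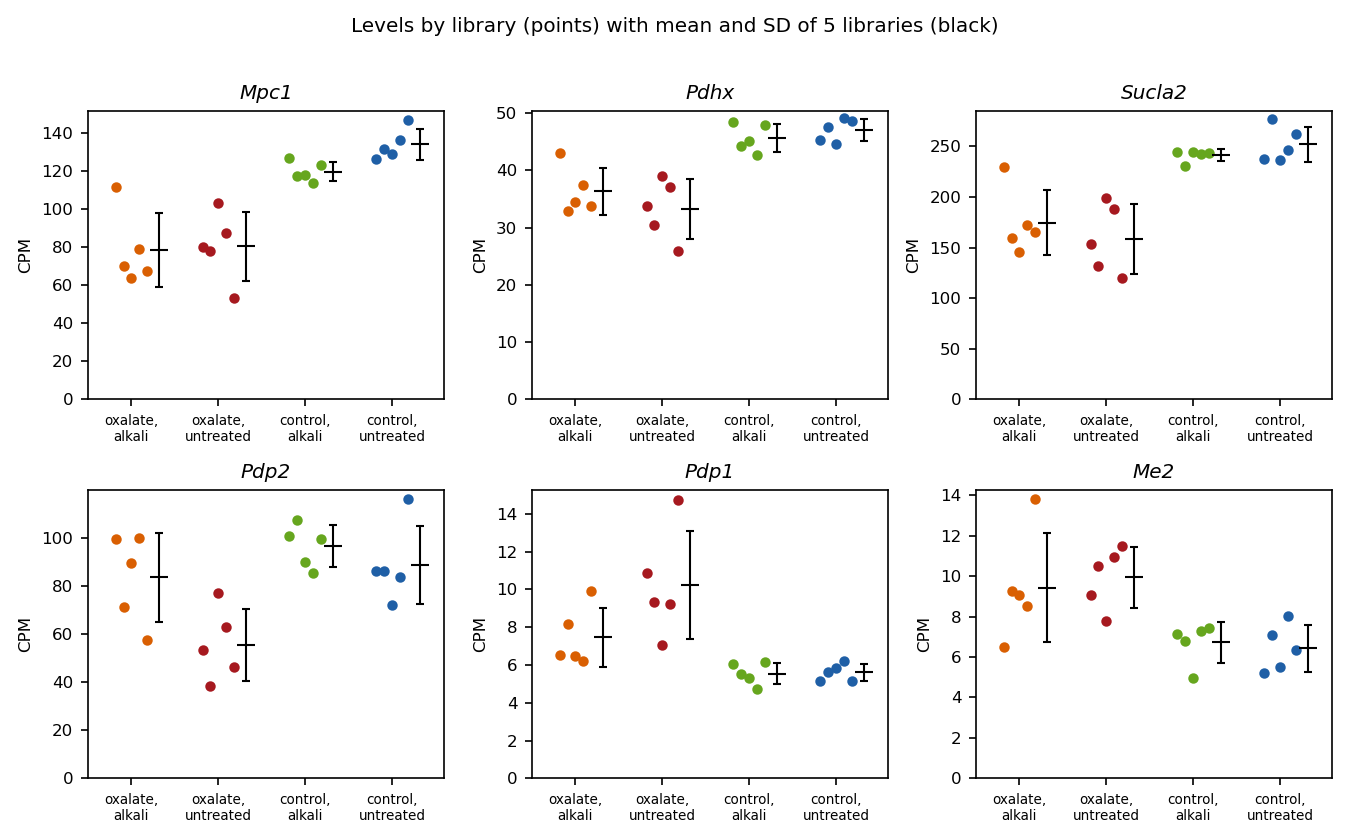
CPM of 6 genes in each library (points) with the mean and SD of 5 libraries (black), from 0. Mpc1, Pdhx and Sucla2 are lower in both oxalate groups; Pdp2 is lowest in untreated oxalate, and Pdp1 and Me2 are higher in untreated oxalate than in untreated control.

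Among the kinases, Pdk2 averaged 194 ± 48.3 CPM in untreated oxalate and 278 ± 30.6 CPM in untreated control, and Pdk3 averaged 37.9 ± 6.98 CPM and 59.1 ± 6.57 CPM in the same groups. Both fell without overlap, at log2 fold changes of -0.52 ± 0.15 and -0.64 ± 0.16; the Pdk2 call was lost under total-count scaling. Pdk1, which hypoxia induces in many cell types, had 38.0 ± 6.22 CPM in untreated oxalate and 36.4 ± 3.55 CPM in untreated control. Its log2 fold change of 0.062 ± 0.14 did not pass, and its sign turned (-0.022) without Oxalate 40. Pdk2 was by far the most abundant kinase per exon length, at 61.2 ± 15.3 RPKM in untreated oxalate and 87.8 ± 9.66 RPKM in untreated control, against 4.88 ± 0.8 and 4.68 ± 0.457 RPKM for Pdk1 in those groups.

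Because the phosphatase subunits moved in opposite directions, their ratio per exon length was computed for each library, a choice made after their values were seen and given with no test. Pdp2 over Pdp1 was 3.91, 3.26, 8.65, 5.39 and 2.48 in untreated oxalate libraries, against 13.2, 12.1, 9.73, 10.7 and 17.8 in untreated control libraries. The groups did not overlap. Under alkali the ratio was 12.04, 6.91, 10.97, 12.8 and 4.61 in oxalate libraries and 13.2, 15.3, 13.5, 14.3 and 12.9 in control libraries, again without overlap. The alkali-treated oxalate libraries spanned the gap between untreated oxalate and untreated control, with Oxalate_late 2, 8 and 30 inside the untreated control range and Oxalate_late 5 and 33 inside the untreated oxalate range. Ratios were computed for 13 pairs and none was tested. Groups overlapped in every comparison of 2 groups for Pdk2 over Pdk1, Pdk2 over Pdk3, Sucla2 over Suclg2 and Idh2 over Idh3a. The same held for Pdha1 over Pdhb and Cs over Acly. Untreated oxalate lay below untreated control without overlap for Me1 over Me2, Me1 over Me3, Mdh1 over Mdh2, Mpc1 over Mpc2 and Aco1 over Idh1. For Idh1 over Idh2 it lay above. Exon length here is the union over a gene's transcripts, so a shift of transcripts would also move a ratio.

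**Figure D3:**
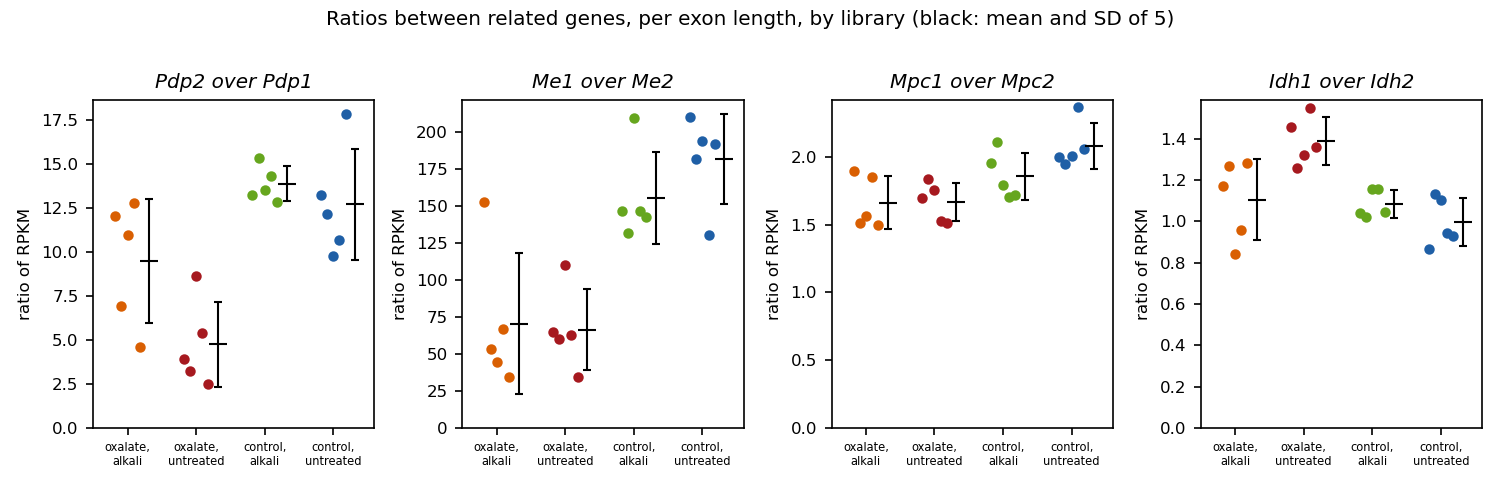
Ratios of RPKM between related genes in each library (points), with the mean and SD of 5 libraries (black), from 0. Pdp2 over Pdp1 in each oxalate group is below the control group of the same treatment without overlap, while oxalate on alkali overlaps untreated control. Me1 over Me2, Mpc1 over Mpc2 and Idh1 over Idh2 separate untreated oxalate from untreated control.

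The 12 mitochondrial enzymes of the cycle fell in 12 of 12 cases in untreated oxalate, within a narrow range of log2 fold changes, -0.67 to -0.35. Cs, citrate synthase, stood at the small end, at 255 ± 15.6 CPM in untreated oxalate and 325 ± 25.9 CPM in untreated control (-0.35 ± 0.081). The isocitrate step is served by the NAD+-linked enzyme (Idh3a catalytic, Idh3b and Idh3g its other subunits) and by the NADP+-linked Idh2. Idh3a had 129, 122, 142, 139 and 99.1 CPM in untreated oxalate, against 161, 180.2, 164, 193 and 174 CPM in untreated control. Idh3b had 237, 207, 272, 251 and 172 CPM in untreated oxalate, against 313, 323, 324, 317 and 341 CPM in untreated control. Idh3g had 233, 202, 272, 259 and 162 CPM in untreated oxalate, against 331, 335, 314, 324 and 355 CPM in untreated control. For each of the 3 subunits the groups were apart, at log2 fold changes of -0.47 ± 0.095 for Idh3a, -0.51 ± 0.11 for Idh3b and -0.55 ± 0.11 for Idh3g. Their edgeR adjusted p-values were 0.000585, 0.000742 and 0.000542. Idh2 fell by a similar amount (-0.57 ± 0.14), with 328 ± 70.7 CPM in untreated oxalate and 486 ± 46.5 CPM in untreated control.

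At the alpha-ketoglutarate dehydrogenase step, Ogdh, the decarboxylase, had 656, 579, 647, 594 and 415 CPM in untreated oxalate, against 822, 838, 782, 852 and 901 CPM in untreated control. Dlst, its succinyltransferase core, had 342, 311, 391, 385 and 234 CPM in untreated oxalate, against 465, 495, 477, 474 and 490.1 CPM in untreated control. Neither gene overlapped between the groups, and their log2 fold changes of -0.54 ± 0.11 and -0.53 ± 0.11 had edgeR adjusted p-values of 0.000588 and 0.000889. Succinyl-CoA ligase pairs the alpha subunit Suclg1 with either the ATP-forming Sucla2 or the GTP-forming Suclg2. Sucla2 (chr14:73525319-73596142, plus strand) had 154, 132, 199, 188 and 119.8 CPM in untreated oxalate, against 238, 277, 237, 246 and 263 CPM in untreated control. The highest oxalate library was below the lowest control, and the log2 fold change was -0.67 ± 0.13 (edgeR, adjusted p = 0.000364). Suclg1 (-0.62 ± 0.14) and Suclg2 (-0.58 ± 0.16) fell alongside, so that Sucla2 over Suclg2 per exon length was 0.707 ± 0.0621 in untreated oxalate and 0.743 ± 0.0543 in untreated control, overlapping.

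The last steps of the cycle followed. The 4 subunits of succinate dehydrogenase, which are outside the 34 but sit between Suclg1 and Fh1, fell at log2 fold changes of -0.60 ± 0.13 (Sdha), -0.58 ± 0.14 (Sdhb), -0.49 ± 0.13 (Sdhc) and -0.47 ± 0.11 (Sdhd). Fh1, fumarase, averaged 169 ± 37.2 CPM in untreated oxalate and 241 ± 17.8 CPM in untreated control, a log2 fold change of -0.52 ± 0.13. Mdh2, mitochondrial malate dehydrogenase, averaged 327 ± 69.1 CPM and 436 ± 31.0 CPM in those groups, a log2 fold change of -0.41 ± 0.12. Under total-count scaling Cs, Idh3a and Mdh2 no longer passed.

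The cytosolic enzymes were divided. Mdh1, which runs the cytosolic side of the malate-aspartate shuttle, was the most abundant of the 34 per exon length, at 363 ± 82.6 RPKM in untreated oxalate and 583 ± 50.6 RPKM in untreated control. It fell by a log2 fold change of -0.68 ± 0.15 without overlap. Aco1, a cytosolic aconitase that acts as an iron regulatory protein when it lacks its iron-sulphur cluster, averaged 293 ± 44.6 CPM in untreated oxalate and 455 ± 28.2 CPM in untreated control, and also fell without overlap (-0.63 ± 0.14). Idh1, the NADP+-linked isocitrate dehydrogenase of cytosol and peroxisomes, did not pass. It ranged widely, at 541, 384, 565, 632 and 333 CPM in untreated oxalate, against 456, 586, 540.3, 443 and 558 CPM in untreated control, so that Oxalate 39 was above and Oxalate 12 and 40 were below all controls. Its log2 fold change was -0.074 ± 0.15, and 0.21 under total-count scaling. Idh1 over Idh2 per exon length was 1.39 ± 0.115 in untreated oxalate and 0.995 ± 0.116 in untreated control, higher in oxalate without overlap.

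Acly, which cleaves citrate into acetyl-CoA for lipid synthesis, did not pass either (-0.38 ± 0.20; edgeR, adjusted p = 0.123). It had 193, 188, 180.2, 200.1 and 148 CPM in untreated oxalate, against 189, 211, 209.9, 388 and 183 CPM in untreated control. Control 26 stood far above the other controls. That library had 29.7 CPM of Adipoq. Oxalate_late 33, the highest for Acly among the treated oxalate libraries at 288 CPM, had 35.4 CPM of Adipoq. Control_late 4, with 18.0 CPM of Adipoq, was also the highest of its group for Acly (223 CPM). Control 9 and Oxalate 32, with 20.1 and 3.12 CPM of Adipoq, were not, at 189 and 180 CPM of Acly. A link between Adipoq and Acly was not tested. Without the 6 libraries above 1 CPM of Adipoq the log2 fold change of Acly was -0.19.

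The 3 malic enzymes, which turn malate into pyruvate, went 3 ways. Me1, the cytosolic NADPH-forming enzyme, averaged 335 ± 87.8 CPM in untreated oxalate and 605 ± 55.9 CPM in untreated control, and its log2 fold change of -0.86 ± 0.20 was the lowest of the 34. Me2 (chr18:73769903-73815449, minus strand) had 9.09, 10.5, 7.77, 10.9 and 11.5 CPM in untreated oxalate, against 5.20, 7.11, 5.49, 8.04 and 6.33 CPM in untreated control. Oxalate 32 lay inside the control range and the other 4 lay above it. Me2 rose by a log2 fold change of 0.63 ± 0.18 (edgeR, adjusted p = 0.00589) and stayed a call under all 28 alternatives, at 0.53 to 0.94. Me3, the NADP+-linked enzyme of mitochondria, had 31.7 ± 5.06 CPM in untreated oxalate and 34.9 ± 2.29 CPM in untreated control and did not pass (-0.14 ± 0.091, and 0.15 under total-count scaling). Per exon length Me1 exceeded Me2 by a ratio of 66.3 ± 27.2 in untreated oxalate and 181 ± 30.2 in untreated control, without overlap. Me2 was the least abundant of the 34 per exon length, at 1.37 ± 0.208 RPKM in untreated oxalate and 0.887 ± 0.161 RPKM in untreated control.

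The 3 carriers fell. Slc25a11, which exchanges alpha-ketoglutarate for malate, averaged 141 ± 22.3 CPM in untreated oxalate and 187 ± 8.68 CPM in untreated control and fell without overlap (-0.41 ± 0.096). The citrate carrier Slc25a1 (-0.34 ± 0.10) and the dicarboxylate carrier Slc25a10 (-0.53 ± 0.21) overlapped between the groups. Slc25a10 was the least secure call, with an adjusted p of 0.0415 by edgeR that was lost in 6 of 20 fits with 1 library left out. Under total-count scaling none of the 3 carriers passed.

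The second comparison asked what alkali did in oxalate libraries. None of the 34 genes passed in edgeR; 4.08% of all tested genes did (1.76% higher, 2.33% lower), and 2 of the 34 had an unadjusted p under 0.05, as did 3156 of the 15430 genes. DESeq2 called 1 of the 34, Pdp2, and 7.12% of the genes it tested. The median log2 fold change of the 34 was 0.060, against 0.0060 for all genes, with 24 of the 34 above 0. Of the markers, 4 of 5 for injured tubule (median -1.95) and 2 of 9 for macrophages (median -0.97) fell, and 0 of 14 for proximal tubule passed (median 0.44). Markers that rose were 2 of 4 for distal convoluted tubule (median 0.52), 1 of 6 for intercalated cells (0.32) and 1 of 6 for endothelium (0.24). No marker of the other lists passed. The 3 genes with the smallest p are given as not passing.

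Pdp2 had 99.5, 71.4, 89.6, 99.8 and 57.6 CPM in oxalate on alkali, against 53.5, 38.4, 77.0, 62.8 and 46.2 CPM in untreated oxalate. The groups overlapped, with Oxalate_late 33 lowest on alkali and Oxalate 32 highest without it. The log2 fold change was 0.59 ± 0.17 (edgeR, adjusted p = 0.0569; 0.0118 to 0.239 over the alternatives). Pdp2 did not pass in 18 of 20 fits with 1 library left out or in 5 of 8 other settings. It passed under total-count scaling (0.0429), in DESeq2 (0.0235), without Oxalate 32 (0.0118) and without Oxalate_late 33 (0.0215). It also passed without the 6 libraries with Adipoq above 1 CPM (0.0138). Oxalate 32 and Oxalate_late 33 are among those 6. The mean Pdp2 level was 96.6 ± 8.76 CPM in control on alkali and 88.8 ± 16.3 CPM in untreated control. Pdp1 had 6.54, 8.17, 6.47, 6.19 and 9.89 CPM in oxalate on alkali, against 10.9, 9.32, 7.05, 9.23 and 14.7 CPM in untreated oxalate. Its log2 fold change of -0.46 ± 0.16 did not pass (edgeR, adjusted p = 0.113). Nor did it pass in 18 of 20 fits with 1 library left out or in 7 of 8 other settings. It passed without Oxalate 32 (0.0311), without Oxalate_late 33 (0.0397) and without the Adipoq libraries (0.0242). Idh3g had 293, 242, 261, 289 and 235 CPM in oxalate on alkali, against 233, 202, 272, 259 and 162 CPM in untreated oxalate, with overlap and a log2 fold change of 0.23 ± 0.11 (edgeR, adjusted p = 0.262). The opposite signs of Pdp1 and Pdp2 in this comparison and in the one before share the untreated oxalate libraries, so they are not independent.

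In control libraries alkali was set against no treatment: none of the 34 genes passed in edgeR, 0 of the 34 had an unadjusted p under 0.05, and 0.0% of all genes passed (389 with an unadjusted p under 0.05; DESeq2 called 3, or 0.0145%, none of the 34). The smallest p-values belonged to Cs, Acly and Aco1. Cs had 312, 319, 278, 289 and 295 CPM in control on alkali, against 309.6, 314, 305, 369 and 329 CPM in untreated control (-0.12 ± 0.081). Acly had 203, 223, 189.7, 196 and 174 CPM in control on alkali, against 189, 211, 209.9, 388 and 183 CPM in untreated control (-0.26 ± 0.20). Aco1 had 428, 444, 400.0, 361 and 386 CPM in control on alkali, against 439, 490.2, 420.4, 450.0 and 476 CPM in untreated control (-0.17 ± 0.14). The groups overlapped for each, and Control 26 was the highest for both Cs and Acly. The median log2 fold change of the 34 was -0.062.

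The third comparison set oxalate against control with both on alkali. Of the 34 genes 20 fell, 2 rose and 12 did not pass; 40.4% of all tested genes passed, 17.1% lower and 23.4% higher. The median of the 34 was -0.34, against 0.024 for all genes. For 14 genes the groups did not overlap downwards (5.51% of genes) and for Pdp1 upwards (10.8%). With 1 library left out, 15 to 25 of the 34 fell and 0 to 2 rose, and their median stayed between -0.40 and -0.31; 0 rose without Oxalate_late 5, 8 or 33 or Control_late 1 or 7. Without the 6 libraries with Adipoq above 1 CPM 9 fell and 0 rose, with 3219 genes passing in place of 6237, while the median of the 34 was -0.33. Under total-count scaling 12 fell and 3 rose, with a median of -0.14. In this comparison 8 of 14 proximal tubule markers fell (median -0.67), while 8 of 9 macrophage markers (median 2.37), 6 of 6 fibroblast markers (1.59) and 5 of 5 injured tubule markers (2.55) rose. So did 6 of 6 podocyte (0.68), 6 of 6 endothelial (0.48) and 5 of 5 T cell markers (2.12). Their part in the fall of the 34 genes was not tested.

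By role, 6 of 7 genes of pyruvate entry and the dehydrogenase complex fell on alkali, 8 of 12 cycle enzymes, 2 of 4 cytosolic enzymes and 2 of 3 carriers. Mpc1 had 112, 70.0, 64.0, 78.8 and 67.2 CPM in oxalate on alkali, against 127, 117, 118, 114 and 123 CPM in control on alkali. Only Oxalate_late 2 came near the controls, without reaching them. The log2 fold change was -0.61 ± 0.15 (edgeR, adjusted p = 0.00401). Mpc2 had 208, 164, 144, 150.4 and 158 CPM in oxalate on alkali, against 229, 196, 232, 235 and 253 CPM in control on alkali, overlapping through Oxalate_late 2 (-0.47 ± 0.13; edgeR, adjusted p = 0.00788). Pdha1 had 541, 386, 355, 423 and 409 CPM in oxalate on alkali, against 591, 574, 597, 575 and 588 CPM in control on alkali, without overlap (-0.47 ± 0.12; edgeR, adjusted p = 0.0065). Dlat, at 147, 109.6, 107, 110.1 and 117 CPM in oxalate on alkali, against 161, 147, 154, 156 and 153 CPM in control on alkali, touched the control range through Oxalate_late 2 alone (-0.39 ± 0.10; edgeR, adjusted p = 0.00725).

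Aco1 had the smallest p on alkali. It had 385, 249, 218, 256 and 217 CPM in oxalate on alkali, against 428, 444, 400.0, 361 and 386 CPM in control on alkali. Oxalate_late 2 lay inside the control range and the other 4 far below it, at a log2 fold change of -0.61 ± 0.14 (edgeR, adjusted p = 0.00327). Without the Adipoq libraries it was -0.50 and did not pass (0.0603). Me1 showed the same arrangement, with 525, 260.2, 214, 301 and 254 CPM in oxalate on alkali, against 553, 475, 554, 567 and 562 CPM in control on alkali. Its log2 fold change was -0.80 ± 0.20 (edgeR, adjusted p = 0.0056). Suclg1 had 329, 229, 236, 284 and 214 CPM in oxalate on alkali, against 384, 339, 389, 365 and 388 CPM in control on alkali (-0.53 ± 0.14; edgeR, adjusted p = 0.00833). Slc25a11 had 169, 151, 132, 131 and 146 CPM in oxalate on alkali, against 186, 175, 189, 188 and 194 CPM in control on alkali (-0.36 ± 0.096; edgeR, adjusted p = 0.00829). Both were free of overlap, and the Slc25a11 call was lost under total-count scaling (-0.14).

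The genes that rose on alkali were those that rose without it. Pdp1 had 6.54, 8.17, 6.47, 6.19 and 9.89 CPM in oxalate on alkali, against 6.03, 5.53, 5.29, 4.72 and 6.14 CPM in control on alkali. The groups were just apart, and the log2 fold change of 0.43 ± 0.17 passed narrowly (edgeR, adjusted p = 0.0469; 0.0211 to 0.203 over the alternatives). The Pdp1 call was lost in 16 of 20 fits with 1 library left out. Me2 had 6.48, 9.26, 9.07, 8.51 and 13.8 CPM in oxalate on alkali, against 7.12, 6.82, 4.99, 7.29 and 7.45 CPM in control on alkali, with Oxalate_late 33 highest and Oxalate_late 2 inside the control range. Its log2 fold change was 0.48 ± 0.18 (edgeR, adjusted p = 0.0336), lost in 5 of 20 such fits. Neither passed without the Adipoq libraries (0.31 for each). Pdp2, which fell without alkali, did not pass on alkali (-0.21 ± 0.17). Cs, Idh2, Idh3a, Ogdh, Pdhb, Pdk2 and Slc25a1 likewise passed without alkali but not on it, at log2 fold changes of -0.33 to -0.10.

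**Figure D4:**
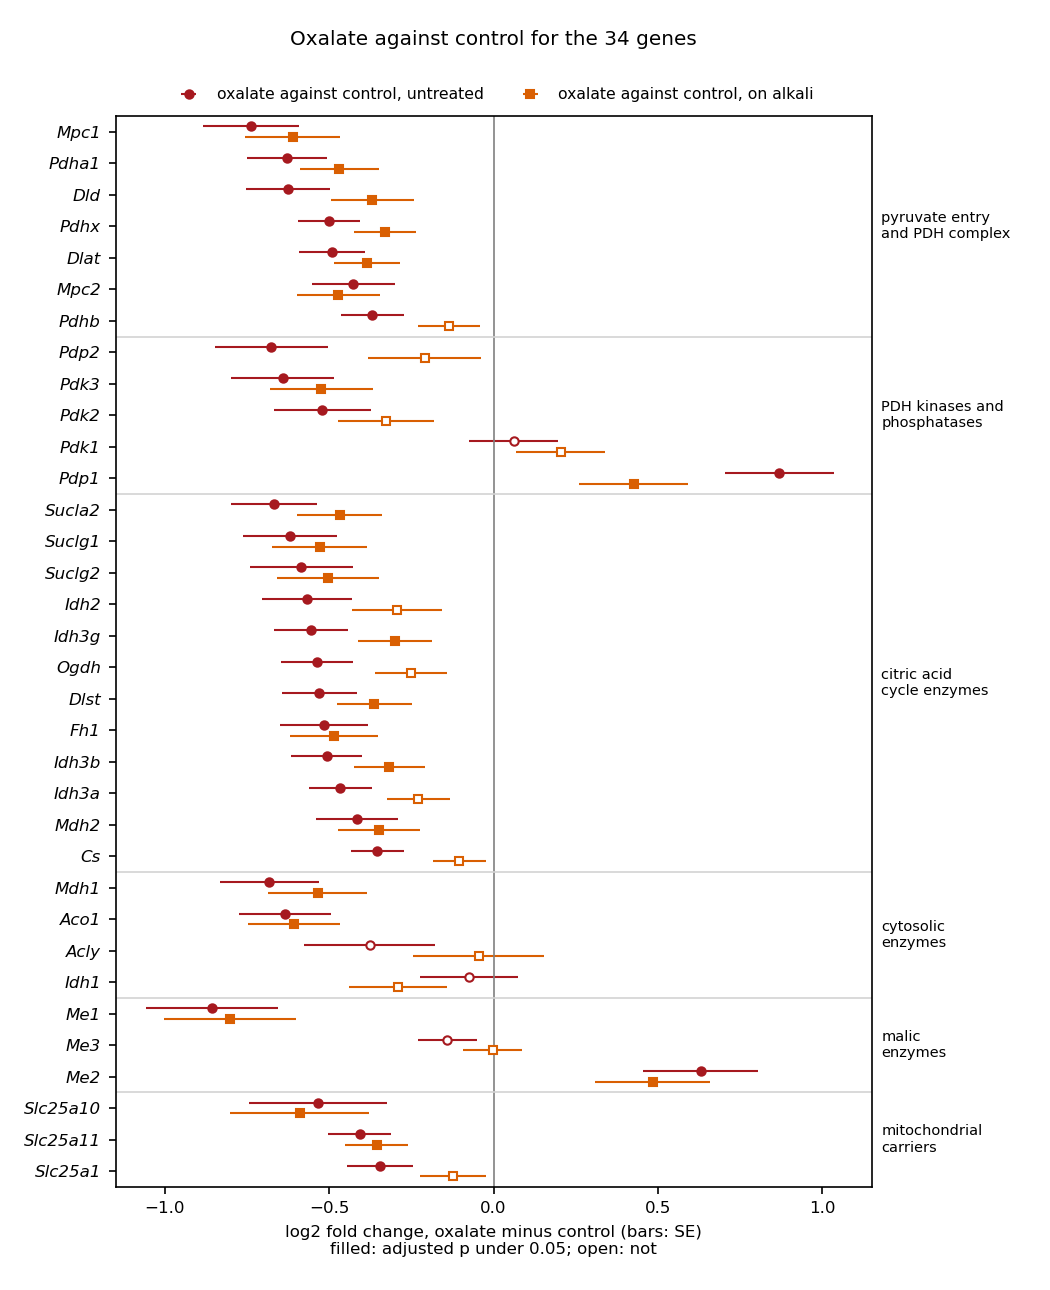
Log2 fold change of oxalate against control (bars: SE) for each of the 34 genes, without alkali (circles) and on alkali (squares); filled symbols passed an adjusted p of 0.05. Most symbols lie left of 0 in both; only Pdp1 and Me2 are filled to the right.

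Whether alkali altered the oxalate effect was tested as an interaction. None of the 34 genes passed in edgeR (1 with an unadjusted p under 0.05) and 0.0% of all genes did (1429 unadjusted; DESeq2 called 15, or 0.104%, none of the 34). The smallest p-values were those of Cs (0.25 ± 0.11; edgeR, adjusted p = 0.52), Pdp2 (0.47 ± 0.24, 0.58) and Pdp1 (-0.44 ± 0.23, 0.588). Genes that passed without alkali and not on it are therefore not shown to differ between the 2 settings. The median interaction of the 34 was 0.14, against 0.0062 for all genes, with 29 of 34 above 0.

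Genes around the pathway were also mostly lower. Of 38 tested companion genes (succinate dehydrogenase, lipoylation, anaplerosis, lactate, acetate and ketone use, and transporters of these acids) 28 fell and 1 rose in untreated oxalate, with a median of -0.52; under total-count scaling 20 fell and 2 rose, with a median of -0.24. Dhtkd1, of the related oxoadipate dehydrogenase, had a log2 fold change of -1.13 ± 0.18. Acss2, which makes acetyl-CoA from acetate, had one of -1.09 ± 0.18. Oxct1, needed to use ketone bodies, fell (-0.90 ± 0.15). The lactate transporter Slc5a8 also fell (-1.17 ± 0.25). Pck2, the mitochondrial phosphoenolpyruvate carboxykinase, was the 1 that rose (0.45 ± 0.098); it and the next pair were chosen after their values were seen. On alkali against untreated oxalate, Oxct1 rose (0.56 ± 0.15, edgeR adjusted p = 0.043). Pck1, the gluconeogenic cytosolic carboxykinase, fell there (-1.57 ± 0.26, edgeR adjusted p = 0.0041). Calls in that comparison depended on the fit: 630 genes passed, but 29 with only the 2 groups fitted. With both on alkali 22 of the 38 fell in oxalate and 0 rose (median -0.39), against 17 and 2 under total-count scaling (median -0.19).

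General mitochondrial genes outside the pathway (import, chaperones, ribosome, porins) fell in 15 of 22 cases in untreated oxalate, with a median of -0.40, and in 6 of 22 under total-count scaling. They fell in 13 of 22 cases in oxalate against control on alkali, and in 6 of 22 under that scaling. Examples without alkali were Mrps5 of the mitochondrial ribosome (-0.54 ± 0.098), the protease Lonp1 (-0.54 ± 0.12) and the chaperone Hspa9 (-0.59 ± 0.14). Proximal tubule markers fell in 13 of 14 cases (median -0.77; 9 under total-count scaling), among them Slc7a13 (-1.76 ± 0.30), Aqp1 (-0.92 ± 0.17) and Lrp2 (-1.22 ± 0.25). All 9 macrophage markers rose (median 3.32) and all 5 markers of injured tubule rose, Havcr1 by 4.33 ± 0.47 and Lcn2 by 4.78 ± 0.44. All 6 podocyte (median 0.59), all 6 fibroblast (2.36) and all 5 T cell markers (2.47) rose too. Of 6 thick ascending limb markers 2 rose and 1 fell (median -0.078). No marker of the remaining lists passed as lower. The part of these shifts in the fall of the 34 genes was not tested.

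The median of the 34 genes was also taken library by library. Relative to the mean of untreated controls, it was -0.15, -0.47, -0.48, -0.35 and -0.56 in oxalate on alkali and -0.45, -0.60, -0.25, -0.32 and -0.96 in untreated oxalate. It lay between -0.11 and -0.0062 in control on alkali and between -0.069 and 0.077 in untreated control. Oxalate 40 was the lowest of its group for 29 of the 34 genes and the highest for Pdp1 and Me2. It also had the lowest proximal tubule median (-1.78) and the highest macrophage median (3.67). Oxalate 32 was the highest of its group for 26 genes and the lowest for Pdp1 and Me2, with medians of -0.35 and 2.15 for those markers. On alkali, Oxalate_late 2 was highest for 24 genes and lowest for Me2, with marker medians of -0.09 and 0.80. These rankings depend in part on the TMM scaling factor, which was 1.283 for Oxalate 40, 1.013 for Oxalate 32 and 0.958 for Oxalate_late 2. Before that scaling the 34 genes took 0.693%, 0.919% and 0.933% of the counts of these libraries. Those shares were the lowest and highest of untreated oxalate and the highest of oxalate on alkali. Oxalate_late 33 was lowest for 14 genes and highest for 6, Me2 and Pdp1 among the latter. Marker medians are given here only for the libraries at an extreme for the most genes. A link between the marker medians and the 34 genes was not tested. The within-group coefficient of variation of the 34 genes had a median of 16.4% in oxalate on alkali, 19.2% in untreated oxalate, 5.31% in control on alkali and 7.95% in untreated control.

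**Figure D5:**
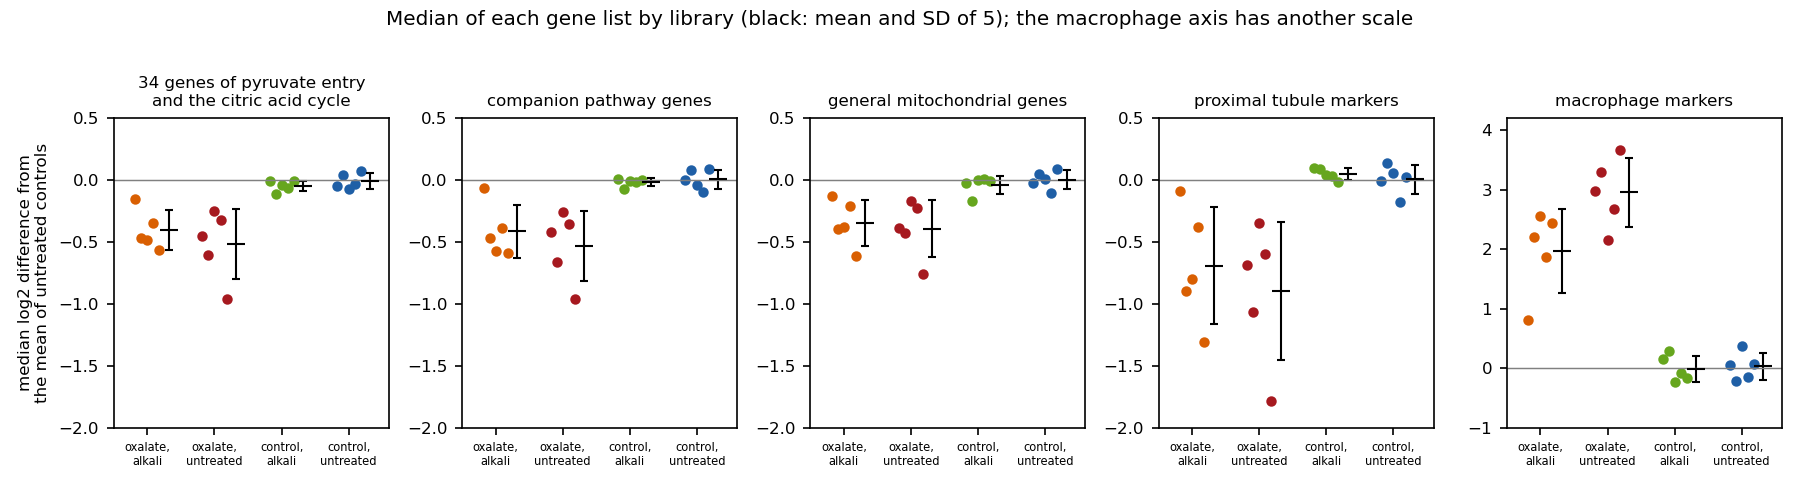
Median log2 difference from the mean of the untreated control libraries for 5 gene lists, by library (points), with the mean and SD of 5 libraries (black). The 34 genes, companion, general mitochondrial and proximal tubule lists are below 0 in all 10 oxalate libraries, and macrophage markers are above 0 in them.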

How the data were processed

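RNA of 20 mouse libraries was prepared with a stranded poly(A) TruSeq kit, per the labels' protocols. The authors deposited raw counts per Ensembl gene identifier, made with bcl2fastq 2.19, Trimmomatic, STAR 2.7.1 and featureCounts, per the submitters' processing notes, which also name edgeR. The build named there, GRCh38.p5, is human while the identifiers are murine, and which mouse build was used is not given in the sources used here. The strand setting of the counting is not given in the sources used here. Counts of Idh3b, Mdh1, Pdha1, Mpc1, Slc25a10, Slc25a11, Me1 and Me3, whose exons overlap genes on the opposite strand, are therefore uncertain, as are those of Mpc1 for its pseudogene. Symbols, coordinates and exon lengths came from GENCODE M21 (GRCm38), which matched 25587 of 25700 identifiers; the 113 others held at most 0.0541% of any library.

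Genes were kept by filterByExpr (minimum count 10), which left 15430 and removed 10270. After TMM scaling, all 20 libraries were fitted together, with a mean for each of the 4 groups, in R 4.3.3 with edgeR 4.0.16 (robust quasi-likelihood). The 5 contrasts were adjusted by Benjamini-Hochberg over all genes, and a call is an adjusted p under 0.05. SE is the log2 fold change over the square root of F. The common biological coefficient of variation came to 0.2. The scripts were checked on simulated counts. Replicate libraries differed beyond counting noise, so none was merged. Members, lists and tests were chosen with earlier results of these data known. Full values go to the 12 genes with the smallest p without alkali, up to 8 in other comparisons, those moving against the majority, and the 3 smallest p where fewer than 3 passed; from each other list, up to 6 genes with the smallest p may be named. Alternatives were size factors, total-count scaling, other filters, a fit that is not robust, fits of 2 groups, DESeq2 1.42.0, and leaving out each library or those with Adipoq above 1 CPM.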

Additional observations from a re-analysis of the deposited data

Results flagged for a closer look

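In 9 of 136 sets of 5 libraries (34 genes in 4 groups) the highest or lowest library stood apart by Dixon's criterion, which chance meets in about 1 in 20. Of these, 4 fell on Oxalate_late 2, which was the highest of its group: Aco1 at 385 CPM (others 217 to 256), Dlat at 147 CPM (others 107 to 117), Pdk3 at 58.1 CPM (others 31.6 to 32.7) and Me1 at 525 CPM (others 214 to 301). Control 26 was highest for Acly, at 388 CPM (others 183 to 211), and for Pdhb, at 193 CPM (others 158 to 166). Control_late 4 was lowest for Sucla2, at 231 CPM (others 243 to 245), and for Me1, at 475 CPM (others 553 to 567). Control_late 7 was lowest for Me2, at 4.99 CPM (others 6.82 to 7.45).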

How the results depend on the processing

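No paired analysis was possible because the groups share no replicate numbers. For untreated oxalate against control, 27 to 28 of the 34 genes fell and 2 rose when 1 library was left out, and 2 rose under every other setting; of the lower calls 19 held under total-count scaling and 27 or 28 under the rest. Total-count scaling turned Idh1 (0.21) and Me3 (0.15), and leaving out 1 library gave Idh1 -0.18 to 0.00241 and Pdk1 -0.022 to 0.14. On alkali, that scaling gave 12 lower, and turned Cs (0.11), Pdhb (0.078), Acly (0.18), Slc25a1 (0.089) and Me3 (0.21). With both on alkali 1 gene rose with size factors (RLE) and with only the 2 groups fitted, and 0 rose with no low-count filter. Without the Adipoq libraries, chosen after seeing the data, 0 rose, 9 fell and 3219 genes passed, while the median of the 34 was -0.33 (-0.34 with all libraries). The stricter filter gave Me3 0.013. With 1 library left out, 0 to 2 rose there and 15 to 25 fell, Acly was -0.24 to 0.054 and Me3 -0.032 to 0.042.

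For alkali in oxalate, 185 (without Oxalate 12) to 1160 (without Oxalate 32) genes passed with 1 library left out, against 630; 0 to 1 of the 34 rose, 0 to 1 fell, and their median was -0.011 to 0.15. Only the 2 groups gave 29 genes. The Adipoq libraries left out gave 1263 genes, 1 member higher and 1 lower; DESeq2 gave 1164 and 1 higher; total-count scaling gave 1 higher. For alkali in control 0 to 1 genes passed with 1 library left out and 3 in DESeq2. For the interaction 0 to 3 passed with 1 library left out, 1 without the Adipoq libraries and 15 in DESeq2; it has no fit of only 2 groups. The causes were not tested. The common coefficient of variation of 0.2 and 5 libraries a group limit what small differences could pass.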
